A study of Homo sapiens with 9 samples.

Results

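Retinoic acid is made from vitamin A inside cells, and its level there is set by a small group of enzymes and carriers. Retinol dehydrogenases such as RDH10 and DHRS9 oxidise retinol to retinaldehyde, DHRS3 reduces retinaldehyde back to retinol, and the cytochrome P450 enzymes CYP26A1 and CYP26B1 hydroxylate retinoic acid so that it can be cleared. RBP4 carries retinol in the blood, STRA6 is the membrane receptor that takes retinol up from RBP4, and CRABP2 binds retinoic acid in the cytoplasm and passes it to its nuclear receptors. Several of these genes, CYP26A1 above all, are textbook targets of the receptors themselves, which makes them a feedback system.

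These 8 genes (CYP26A1, CYP26B1, DHRS3, DHRS9, RDH10, CRABP2, RBP4 and STRA6) were chosen by name, with earlier results of these data known. Each matched 1 locus among 36119 in the deposited knockout table and 1 among 35856 in the treatment table. Their levels were followed in 9 RNA-seq libraries of the NB4 cell line, derived from acute promyelocytic leukaemia; its PML-RARA fusion joins a retinoic acid (RA) receptor to another protein, and RA makes the cells mature. The treatment set had 5 libraries, each from a different 24 h exposure: DMSO (the vehicle), MC_2580 (which inhibits the histone demethylase LSD1; dose not given), RA 0.01 uM, RA 1 uM, and MC_2580 with RA 0.01 uM, called the combination below. The knockout set held 2 libraries of untreated LSD1 knockout cells (KO) and 2 of untreated wild-type cells (WT). The labels do not say how many knockout clones there were, and the deposited table gives both KO libraries the same line name. Whether replicates were separate cultures is not stated, and p-values cover only the spread between these libraries, which may be technical. Levels are FPKM, fragments scaled to transcript length and library size, which allows levels of different genes to be compared per length. No source used here gives read totals, so the depth behind each value is unknown and no counting interval was computed.

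As a check of the labels, KDM1A, the gene for LSD1 (named AOF2 in the tables), had levels of 14.0 and 16.8 FPKM in KO 1 and KO 2, 49.8 and 66.6 in WT, and 50.8 to 69.9 across the treatment set. The authors' test of KO 2 against WT 2 failed for this gene, though its values are listed. Of 6 promyelocyte markers 5 reached 1 FPKM in each set, with MPO at 2454 to 6518, while ELANE was at 0.242 or less in every library. Markers of erythroid cells and hepatocytes stayed under 1 FPKM everywhere, with HBB, AHSG and FGB at 0 in all 9 libraries. Of 6 lymphoid markers CD3D, CD2 and CD79A reached 1 FPKM in the knockout set and CD3D and CD79A in the treatment set, where the list summed to between 72.4 FPKM (MC_2580) and 131 (the combination). MS4A1 was at 0. CD79A went from 1.62 FPKM in DMSO to 50.0, 55.2 and 73.4 in RA 0.01 uM, RA 1 uM and the combination, while CD3D went from 74.4 to 60.8, 56.1 and 57.3 and CD2 from 0.0606 to 0. Among the promyelocyte markers MPO went from 5301 FPKM in DMSO to 2678, 2454 and 2873 in the same libraries, CTSG from 58.6 to 10.3, 7.01 and 4.65, and PRTN3 from 178 to 762, 966 and 454. The part of these changes in the RA results below was not tested. Of 5 matched fibroblast and epithelial markers EPCAM (6.86 to 9.68 FPKM) and COL1A1 (1.18 FPKM in RA 1 uM only) reached 1 FPKM in the treatment set.

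In untreated cells most of the group was low or near 0. DHRS9 was the highest of the 8 in both WT libraries (25.2 and 19.9 FPKM), in both KO libraries (15.5 and 12.1) and in DMSO (13.3). RDH10, RBP4, CRABP2 and DHRS3 lay between 0.294 and 3.43 FPKM in those libraries, with replicates far enough apart that their order changed from library to library. STRA6 was at or under 0.599 FPKM, CYP26B1 at or under 0.114 and CYP26A1 at or under 0.111. RA changed the order. In RA 1 uM it ran DHRS9, DHRS3, CYP26A1, CYP26B1 and STRA6, followed by RDH10, RBP4 and CRABP2, and in the combination DHRS3 was the highest.

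**Figure D1:**
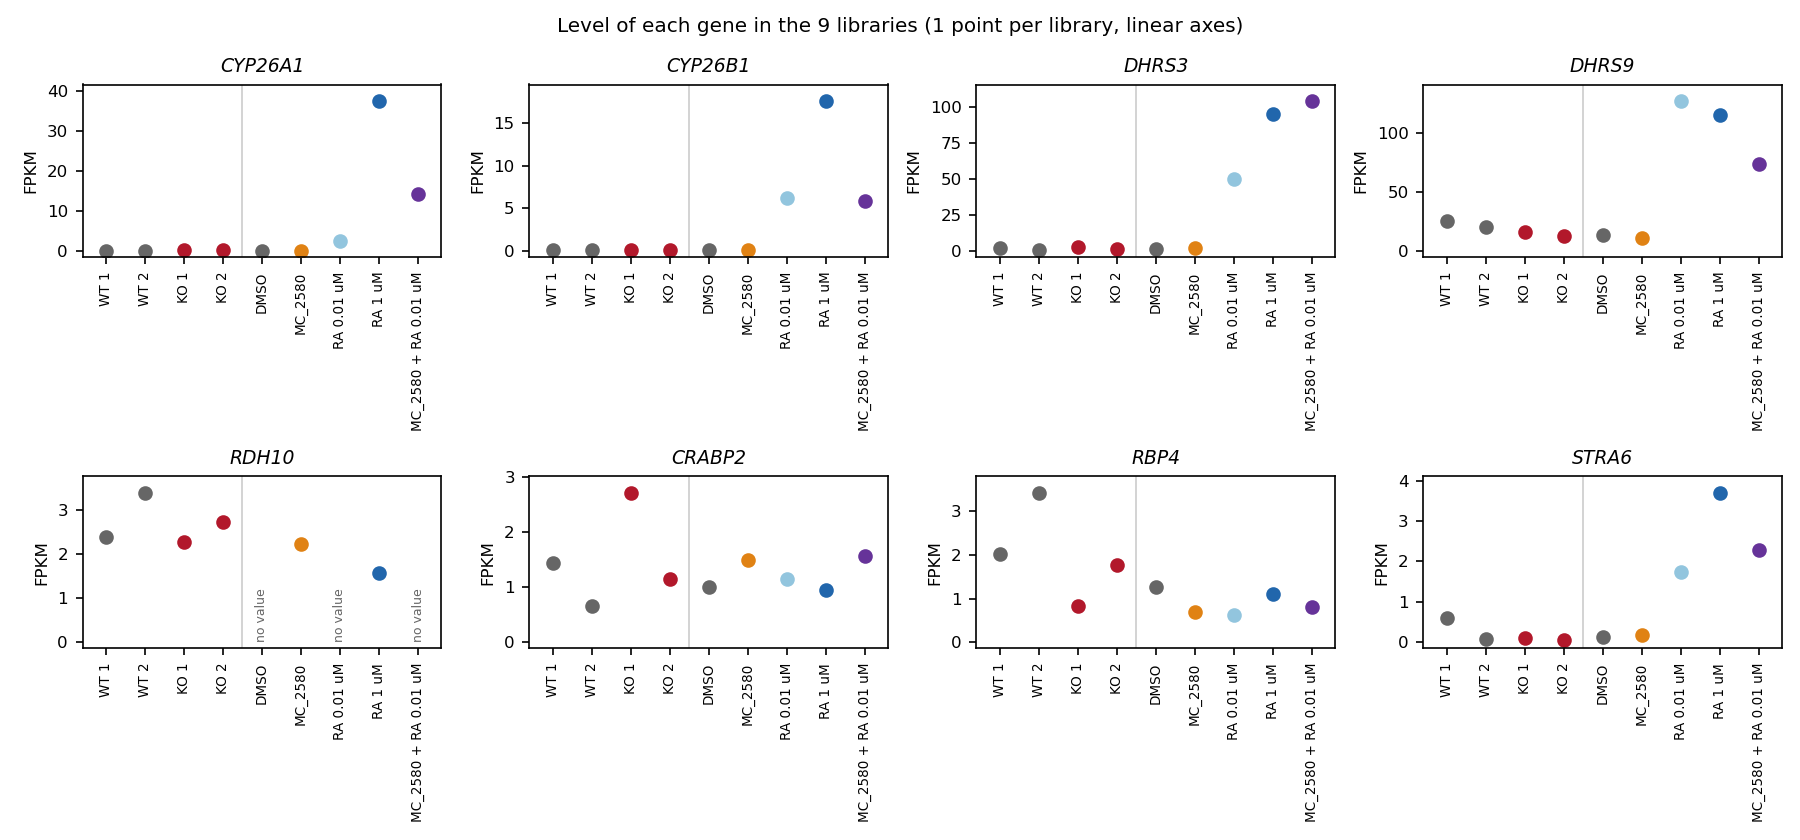
Level of each of the 8 genes in FPKM (vertical axis, linear, a separate scale per gene) in each of the 9 libraries (horizontal axis), 1 point per library; the grey line parts the knockout set from the treatment set. CYP26A1, CYP26B1, DHRS3, DHRS9 and STRA6 stand up in the 3 libraries with RA, whereas CRABP2 and RBP4 do not, and RDH10 has no value in 3 treatment libraries.

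The comparisons of RA with DMSO ask which of these genes respond to 24 h of RA in leukaemic promyelocytes. All comparisons within the treatment set put 1 library against another, so replicate error is unknown and no p-value was computed, and those with DMSO share the same DMSO library. A gene is called here at a 2-fold difference in FPKM + 1 where 1 of the compared libraries reached 1 FPKM. Log2 differences are on that FPKM + 1 scale, which understates the change of low genes. In bulk RNA, more cells of a kind and more RNA per cell cannot be told apart.

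Both RA-degrading enzymes were nearly silent without RA. CYP26A1 (chromosome 10, 94823222 to 94827637, build hg18) stood at 0.0396 FPKM in DMSO, 0.0178 in MC_2580, 2.49 in RA 0.01 uM, 37.4 in RA 1 uM and 14.2 in the combination. The 3 libraries with RA lay apart from the 2 without it, and the 3 also lay apart from each other. The log2 difference from DMSO was 1.75 in RA 0.01 uM, 5.21 in RA 1 uM and 3.87 in the combination. CYP26B1 (chromosome 2, 72209875 to 72228471), a second RA hydroxylase, stood at 0.0444 FPKM in DMSO, 0.0635 in MC_2580, 6.21 in RA 0.01 uM, 17.6 in RA 1 uM and 5.85 in the combination. At the low dose CYP26B1 was therefore the higher of the pair, and at the high dose and in the combination CYP26A1 was. The log2 difference of CYP26B1 from DMSO was 2.79, 4.15 and 2.71 in the same order.

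CYP26A1 is the classic example of a gene with a retinoic acid response element next to its start. Such an element is a direct repeat of a hexamer that the receptor pair binds, and in the DR5 form 5 bases lie between the repeats. The RefSeq promoter windows (GRCh38.p14, 250 bases before to 50 after each start) were searched on both strands for pairs of hexamers, spelled AGGTCA in the canonical form, GGGTCA in a first variant, AGTTCA in another and GGTTCA in the last, in the same orientation with 1, 2 or 5 bases between them. Of the 8 genes 7 matched a window, 19 windows in all. A DR5 match was found in 31 of 35116 windows (0.0883%), 1 of which belongs to CYP26A1. It lies at chr10:93073803-93073819, on the strand opposite to the gene, 90 bases before 1 of the gene's 2 starts. In the GENCODE 29 annotation it lies in an untranslated part of an exon of the transcript CYP26A1-202. No other window of the 8 genes held a DR5 match, and no window of theirs held a match with 1 or 2 bases between the hexamers, which 46 windows (0.131%) and 14 windows (0.0399%) did. A single hexamer is common, in 38.6% of all windows and 7 of these 19. Among the receptor genes RARB, another textbook target, held the only other DR5 match, at chr3:25428210-25428226, 53 bases before 1 of its starts and inside the transcript RARB-202, in none of its exons. The 2 sites are shown with 6 bases on either side, on the strand of the gene, with the hexamers in capitals. A match of letters is a description of the window, not a measurement of binding.
CYP26A1: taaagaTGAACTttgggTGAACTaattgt
RARB: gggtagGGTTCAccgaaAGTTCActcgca

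The retinaldehyde reductase gene DHRS3 (chromosome 1, 12550526 to 12600381) had the largest log2 difference from DMSO of the group in all 3 libraries with RA at a pseudocount of 1, but not at 0.1, where CYP26B1 led in RA 0.01 uM (5.45, DHRS3 5.34) and CYP26A1 in RA 1 uM (8.07, DHRS3 6.27) and the combination (6.68, DHRS3 6.40). It stood at 1.14 FPKM in DMSO, 1.95 in MC_2580, 50.0 in RA 0.01 uM, 95.2 in RA 1 uM and 104 in the combination. Its log2 difference from DMSO was 4.58, 5.49 and 5.62 in the libraries with RA, places 30 of 9705, 16 of 9741 and 22 of 9894 among protein-coding genes ordered from the highest. DHRS9 (chromosome 2, 169629545 to 169660923), the retinol dehydrogenase already expressed without RA, stood at 13.3 FPKM in DMSO, 10.5 in MC_2580, 127 in RA 0.01 uM, 115 in RA 1 uM and 73.8 in the combination. That is 9.58 times the DMSO level at the low dose, 8.69 times at the high dose and 5.57 times in the combination, so the low dose alone gave the highest value. STRA6 (chromosome 15, 72258863 to 72288419), the retinol uptake receptor, stood at 0.133 FPKM in DMSO, 0.18 in MC_2580, 1.73 in RA 0.01 uM, 3.70 in RA 1 uM and 2.27 in the combination (log2 difference 1.27, 2.05 and 1.53). It remained the lowest of the 5 genes above in each library with RA.

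The 2 binding proteins did not follow RA. CRABP2 (chromosome 1, 154936034 to 154942232) stood at 1.00, 1.49, 1.14, 0.94 and 1.57 FPKM in DMSO, MC_2580, RA 0.01 uM, RA 1 uM and the combination. Its values overlapped between libraries with and without RA, and the 2 highest were the 2 libraries with MC_2580. The plasma retinol carrier RBP4 (chromosome 10, 95341434 to 95351491) stood at 1.26, 0.699, 0.617, 1.10 and 0.80 FPKM in the same order, with DMSO the highest. The log2 differences from DMSO lay between -0.04 and 0.36 for CRABP2 and between -0.48 and -0.10 for RBP4. In the knockout table, WT 1 minus WT 2, libraries of the same kind, came to 0.56 for CRABP2 and -0.55 for RBP4. RDH10, the retinol dehydrogenase that carries most of the first oxidation step in embryos, had a failed status in 9 of the 10 pairs of treatment libraries. Only the pair of MC_2580 (2.23 FPKM) and RA 1 uM (1.58 FPKM) gave values, so RDH10 has no comparison with DMSO.

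**Figure D2:**
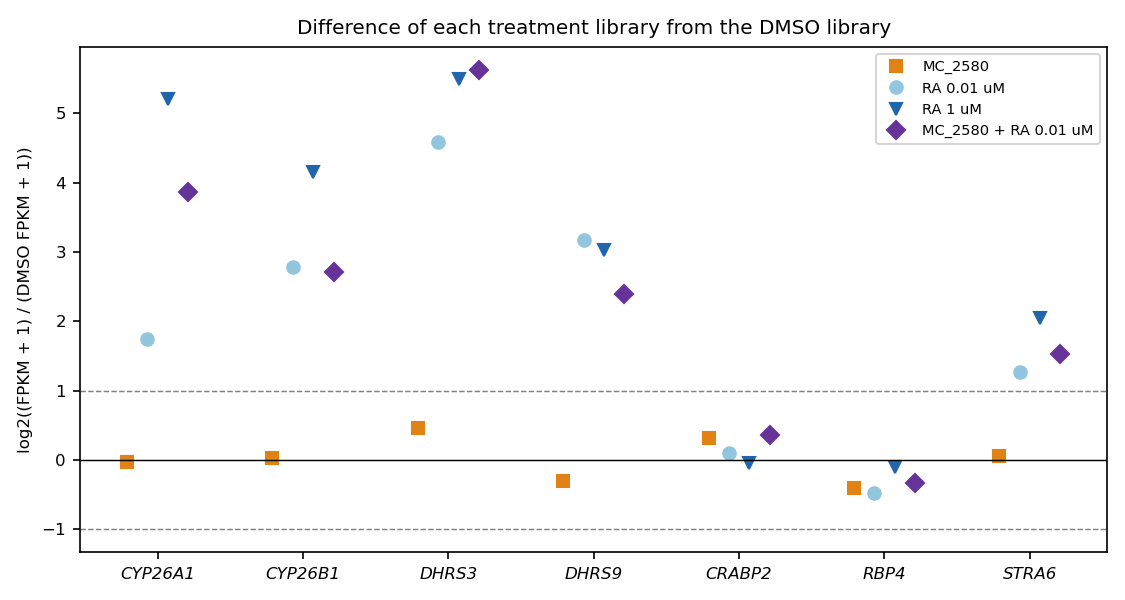
Log2 difference in FPKM + 1 between each treatment library and the DMSO library (vertical axis) for the 7 genes with values in all 5 treatment libraries (horizontal axis), 1 symbol per library; the dashed lines mark 2-fold. The 3 libraries with RA lie above 2-fold for CYP26A1, CYP26B1, DHRS3, DHRS9 and STRA6, and every MC_2580 value lies within 2-fold.

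By the 2-fold rule 5 of 7 genes with a value were higher than DMSO in RA 0.01 uM, where 5.42% of all loci (protein-coding genes, 4.87%) were. The same 5 of 7 were higher in RA 1 uM (6.63%; protein-coding genes, 6.5%) and in the combination (9.05% and 9.36%), and 0 were lower in any of the 3, where 3.99%, 4.09% and 4.64% of all loci were. CYP26A1, CYP26B1 and STRA6 passed the filter on low values only through the libraries with RA, so neither the count nor the median below is read as support. The median log2 difference of the 7 was 1.75, 3.03 and 2.39, against -0.06, -0.04 and -0.02 over all loci tested. In the authors' deposited table the same 5 genes are called in each of these comparisons, with 4.55%, 5.08% and 6.44% of testable loci called.

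The 2 RA doses were compared to ask which genes go on rising beyond 0.01 uM. CYP26A1 was 15.0 times as high in RA 1 uM as in RA 0.01 uM, a log2 difference of 3.46 and the second highest among 9566 protein-coding genes. CYP26B1 was 2.83 times as high (log2 difference 1.37, place 31) and STRA6 2.14 times (0.78, place 127). DHRS3 was 1.90 times as high (0.92, place 93), short of 2-fold. DHRS9 was at 0.907 times its low-dose level. The rule called 2 of 7 higher and 0 lower, with 1.93% of all loci (protein-coding genes, 0.753%) called higher and 1.68% of all loci lower. In the authors' deposited table CYP26A1 is the only one of the 8 called in this comparison, in which 1.07% of testable loci are.

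Addition of MC_2580 to RA 0.01 uM asks whether an LSD1 inhibitor raises the response to a low dose of RA. It parted the genes of the group. CYP26A1 was 5.70 times as high in the combination as in RA 0.01 uM alone (2.49 and 14.2 FPKM, log2 difference 2.12) and DHRS3 2.09 times (50.0 and 104 FPKM, 1.05). CYP26B1 hardly differed (6.21 and 5.85 FPKM, -0.08), nor did STRA6 by more than 1.31 times (1.73 and 2.27 FPKM, 0.26). DHRS9 lay lower in the combination, at 0.581 times (127 and 73.8 FPKM, -0.78, place 105 from the lowest of 9787 protein-coding genes), which is short of 2-fold. The rule called 2 of 6 higher and 0 lower, where it called 5.06% of all loci higher and 1.92% lower. For DHRS3 the margin over 2-fold is small. In the knockout table DHRS3 differed by 1.25 on the log2 scale between WT 1 and WT 2 (2.07 and 0.294 FPKM), where 9.05% of all loci and, among protein-coding genes, 3.78% were past 2-fold. Those WT values are far below 50.0 and 104 FPKM and come from the other set, so they do not measure the spread of DHRS3 at these higher levels. In the authors' deposited table CYP26A1 is called here and DHRS3 is not, with 2.83% of testable loci called.

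Against RA 1 uM the combination was lower for both RA-degrading enzymes. CYP26A1 was 2.64 times as high and CYP26B1 3.01 times as high in RA 1 uM (log2 difference of the combination -1.34 and -1.44), places 14 and 11 from the lowest of 9763 protein-coding genes. DHRS3 was nearly level (0.13), STRA6 was at -0.52 and DHRS9 at -0.64. The rule called 2 of 7 lower and 0 higher, with 1.84% of all loci (protein-coding genes, 0.481%) called lower and 4.07% of all loci higher, and the authors' deposited table calls the same 2 genes, with 2.31% of testable loci called. The position of the combination relative to the 2 doses differed by gene. It lay between them for CYP26A1, STRA6 and RBP4, and below both for DHRS9 and, by only -0.08 from the low dose, CYP26B1. It lay above both for CRABP2 (0.26 and 0.41 over the low and the high dose) and, by only 0.13 over the high dose, DHRS3.

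**Figure D3:**
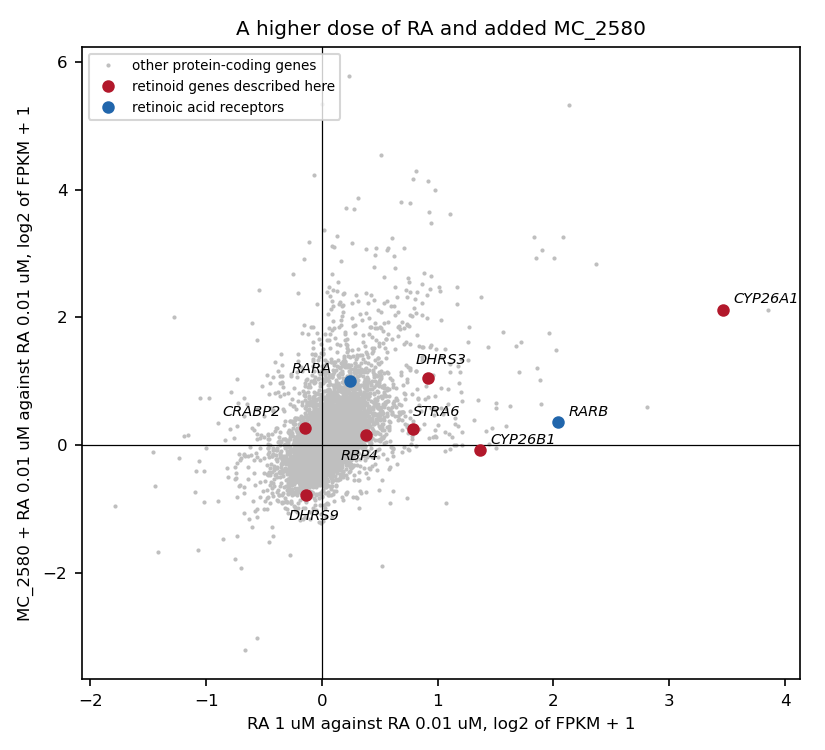
Log2 difference in FPKM + 1 of RA 1 uM (horizontal axis) and of MC_2580 with RA 0.01 uM (vertical axis), both against the same RA 0.01 uM library, 1 point per protein-coding gene at 1 FPKM or more in 1 of the 3 libraries; RDH10 and RARG lack a value and are not drawn. CYP26A1 lies far to the right (3.46) and up (2.12), CYP26B1 to the right with no rise (1.37 and -0.08), DHRS3 near 1 on both axes and DHRS9 below 0 on both.

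MC_2580 without RA was set against DMSO to see whether inhibition of LSD1 moves these genes by itself. None of the 4 genes that reached 1 FPKM in either library differed 2-fold, where 2.22% of all loci were called higher and 1.73% lower. DHRS3 had a log2 difference of 0.47 (1.14 and 1.95 FPKM), CRABP2 of 0.31, DHRS9 of -0.30 and RBP4 of -0.41. CYP26A1, CYP26B1 and STRA6 stayed at or under 0.18 FPKM in both libraries. None of the 8 genes is called in the authors' deposited table, with 1.06% of testable loci called. When RA 0.01 uM was added to MC_2580, 5 of 6 genes were higher by the rule (7.8% of all loci) and 0 lower (4.54%), the same 5 as against DMSO. The authors' deposited table calls those 5, with 5.57% of testable loci called. CYP26A1, CYP26B1 and STRA6 passed the filter on low values only through the combination, and RBP4 fell under it in both libraries. The count is therefore not read as support.

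Knockout of LSD1 in untreated cells was compared with WT in limma over 13156 loci. Of the 8 genes, 5 had a group mean of at least 1 FPKM, and 0 of these passed an adjusted p of 0.05, a level reached by 0.114% of all loci. KDM1A, the gene knocked out, did not pass either (log2 difference -1.84, SE 0.229, limma adjusted p = 0.158). The 0 of 5 therefore does not show that these genes are unaffected. DHRS9 stood at 15.5 and 12.1 FPKM in KO and 25.2 and 19.9 in WT, 13.8 ± 2.42 against 22.5 ± 3.75 (SD, n = 2 per group). The genotypes did not overlap, with KO the lower and a log2 difference of -0.67 (SE 0.22, limma adjusted p = 0.665). It was the only one of the 5 with an unadjusted p under 0.05 in limma, which 7.18% of all loci had. That p was 0.0644 after quantile normalization and lay between 0.0739 and 0.196 with any 1 library left out. RBP4 stood at 0.828 and 1.78 FPKM in KO and 2.02 and 3.43 in WT, again without overlap (log2 difference -0.70, SE 0.36, limma adjusted p = 0.83), with a difference of -0.40 without KO 1 and -0.42 without WT 2. Of all loci tested 16.1% had both KO values below both WT values and 17.9% both above, as 0 of the 5 did. Between the same libraries EPCAM stood at 1.73 and 0.726 FPKM in KO and 11.0 and 12.9 in WT, and CD79A at 7.87 and 8.77 against 1.79 and 1.43. CD2 stood at 3.45 and 3.06 against 0.0724 and 0.0602. The part of these differences in the KO values was not tested.

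The other 3 tested genes overlapped between genotypes. DHRS3 stood at 2.54 and 1.28 FPKM in KO and 2.07 and 0.294 in WT (log2 difference 0.51, SE 0.55), CRABP2 at 2.71 and 1.14 against 1.43 and 0.655 (0.49, SE 0.42), and RDH10 at 2.27 and 2.73 against 2.40 and 3.40 (-0.15, SE 0.24). For these 3 the limma adjusted p lay between 0.846 and 0.946. In DHRS3, CRABP2 and DHRS9 replicate 1 was higher than replicate 2 in both genotypes, and in RDH10 and RBP4 replicate 2 was higher in both. Without WT 2 the differences of DHRS3 and RDH10 turned to -0.11 and 0.04, and that of CRABP2 was 0.09 without KO 1 and 0.89 without KO 2. The 3 genes under the filter stayed close to 0. CYP26A1 stood at 0.0642 and 0.111 FPKM in KO and 0 and 0.0201 in WT, CYP26B1 at 0.114 and 0.0989 against 0.0296 and 0.0713, and STRA6 at 0.0963 and 0.0448 against 0.599 and 0.0828. None of the 8 genes is called for either KO library in the authors' deposited table, with 0.746% and 0.632% of testable loci called.

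The rest of the retinoid pathway was read from a list of 30 further enzymes and carriers, of which 29 matched a locus (RDH5 is not analysed here). Most were silent or steady. Of those reported here 10 reached 1 FPKM in a treatment library. Against DMSO 0 of 9 tested were called in RA 0.01 uM, in RA 1 uM or in MC_2580. Of all loci 5.42%, 6.63% and 2.22% were called higher and 3.99%, 4.09% and 1.73% lower. For 9 genes a count of 0 is near these shares and is not read as a result. In the combination the authors' deposited table calls BCO2, where 6.44% of testable loci are called. BCO2 was at 0.37 FPKM in DMSO and 1.10 in the combination (log2 difference 0.62 in FPKM + 1, not called here). The genes named from this list were chosen after their values were seen. The retinaldehyde dehydrogenases that make RA were low throughout, with ALDH1A1 and ALDH1A2 at or under 0.0644 FPKM in all 9 libraries and ALDH1A3 at or under 0.39. LRAT, which stores retinol as esters, was at or under 0.197 FPKM, and CYP26C1, the third RA hydroxylase, at or under 0.0179. Among those clearly expressed were SCARB1, a lipoprotein receptor that also takes up carotenoids (54.2 to 88.0 FPKM in the treatment set), FABP5, a fatty acid carrier that also binds RA (32.0 to 41.0), and RDH11, a retinaldehyde reductase (33.3 to 39.6). In KO against WT 0 of 10 tested passed in limma (0.114% of all loci) and 1 had an unadjusted p under 0.05, near the 7.18% of all loci.

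Of 6 receptor genes 5 matched a locus (RXRA is not analysed here). RARB, which encodes RA receptor beta, stood at 0.156 FPKM in DMSO, 0.139 in MC_2580, 1.07 in RA 0.01 uM, 7.51 in RA 1 uM and 1.66 in the combination. Like CYP26A1 it was high on the list for dose, at 7.03 times (log2 difference 2.04, place 7 of 9566). RARG, for receptor gamma, stood at 0.135 FPKM in DMSO, 0.202 in MC_2580, 7.42 in RA 0.01 uM and 2.17 in RA 1 uM, with no value in the combination, and was called lower at the high than at the low dose (-1.41, place 5 from the lowest). RARA, for receptor alpha, the partner in the PML-RARA fusion, stood at 11.5, 12.2, 11.4, 13.7 and 24.0 FPKM in DMSO, MC_2580, RA 0.01 uM, RA 1 uM and the combination, so that only the combination stood apart, at 2.10 times RA 0.01 uM (log2 difference 1.01). Whether reads of the fusion enter these gene-level values cannot be told from them, so they are not read as the normal receptor alone. Against DMSO the RARA value was at 2.08 times in FPKM, but at a log2 difference of 0.99 in FPKM + 1 it was not called. A shift of each comparison to a median of 0 would move both values across the 2-fold line, since the medians over all loci were -0.02 against DMSO and 0.03 against RA 0.01 uM. Among the receptors tested against DMSO 1 of 4 was called higher in RA 0.01 uM (5.42% of all loci), 2 of 4 in RA 1 uM (6.63%) and 1 of 3 in the combination (9.05%). RARB and RARG passed the filter on low values only through the libraries with RA, so these counts are not read as support. The authors' deposited table calls 2, 2 and 1 in the same comparisons with DMSO, and includes RARB in RA 0.01 uM, which was 6.83 times as high as in DMSO in FPKM (log2 difference 0.84 in FPKM + 1). It does not call RARA in the combination against DMSO. For the combination against RA 0.01 uM it calls 0 of the receptors, with 2.83% of testable loci called.

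**Figure D4:**
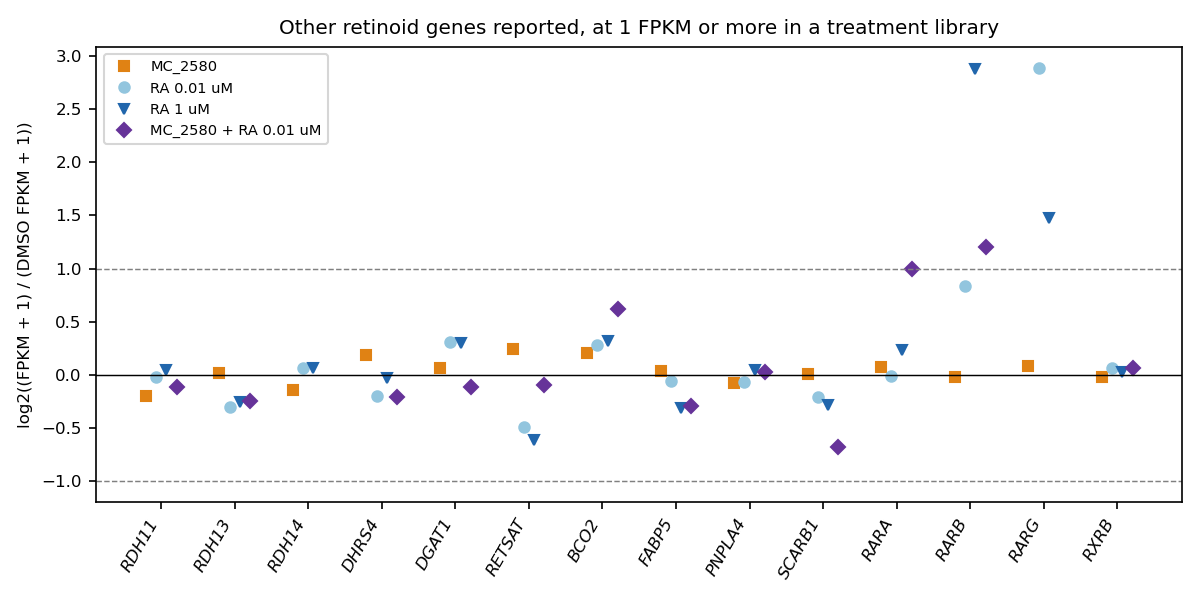
Log2 difference in FPKM + 1 between each treatment library and DMSO (vertical axis) for the 14 other retinoid genes reported here at 1 FPKM or more in a treatment library (horizontal axis; 10 enzymes and carriers, then 4 receptors), 1 symbol per library; the dashed lines mark 2-fold. RARG lies above 2-fold at both RA doses, RARB in RA 1 uM and the combination but not in RA 0.01 uM (0.84), and the enzymes and carriers drawn lie within 2-fold; RDH14 and RARG have no value in the combination.

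To place the 5 genes called against DMSO beside the rest of the transcriptome, the 3 protein-coding genes with the smallest root mean square difference in the 4 log2 differences from DMSO were taken for each, out of 8134 or 8135 with values in all 5 libraries and at least 5 FPKM in 1. STRA6 was nearest on this scale to TRIB1, a pseudokinase gene (0.03, with 6.68 FPKM in DMSO and 31.5 in RA 1 uM), followed by SLC44A1, a choline transporter (0.13), and the kinase gene PIM1 (0.14). The closeness to TRIB1 holds only in FPKM + 1. In FPKM STRA6 was 27.8 times as high in RA 1 uM as in DMSO (0.133 and 3.70), a far larger ratio than that of TRIB1. STRA6 itself stayed under the 5 FPKM asked of the genes compared. DHRS9 was nearest to B3GNT8, a glycosyltransferase (0.21), the chitinase-like CHI3L1 (0.24) and adenosine deaminase ADA (0.24), each of which, like DHRS9, differed little between the 2 doses. DHRS3 was nearest to PRAM1 (0.25), LRG1 (0.30) and the gluconeogenic enzyme FBP1 (0.37). CYP26B1 was nearest to the secreted protease ADAMTS14 (0.32), paxillin PXN (0.49) and FAM20C (0.49). Here too the nearness depends on FPKM + 1. PXN stood at 3.86 FPKM in DMSO and 57.6 in RA 1 uM, and CYP26B1 at 0.0444 and 17.6, a far larger ratio. CYP26A1 had no close match. Its nearest genes were GNG2 (0.76), ADAMTS14 (0.81) and the prostaglandin E synthase PTGES (0.89), the last at 0 FPKM in DMSO, 5.16 in RA 0.01 uM, 87.8 in RA 1 uM and 25.7 in the combination. GNG2 stood at 4.73 FPKM in DMSO and 106 in RA 1 uM, and CYP26A1 at 0.0396 and 37.4, again a far larger ratio in FPKM. These distances rest on 5 libraries that share depth and scaling, and carry no test.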

How the data were processed

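Gene expression was measured by RNA-seq (TruSeq V2 kit, per the labels' protocols) in 9 libraries. The values the authors deposited are FPKM in the layout of Cuffdiff, per the file headers. Build hg18 and the tools Cuffdiff, Cufflinks, TopHat2 2.0.10, TopHat 1.3.1 and CASAVA 1.8 are named, without roles, per the submitters' processing notes. No source used here gives the annotation or the scaling between libraries, so no test or fold spans the 2 tables, and levels named side by side from both may differ in scale. In the knockout table the authors added 0.001 to every FPKM value, which was taken off. In the treatment table every value with a failed status counted as missing (1039 loci lack at least 1 library for this reason), and in the knockout table only those listed at 0. Fold changes, p-values and q-values of the authors were used only through their deposited yes or no calls, which test 1 library against another. Testable loci are those with the status OK. Locus starts were raised by 1, to count from 1.

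For KO against WT, log2(FPKM + 1) entered limma-trend (limma 3.58.1, R 4.3.3). Loci were kept where KO or WT averaged 1 FPKM or more, and p was adjusted over all of them by Benjamini-Hochberg. The fit was tested on simulated data. Treatment libraries were compared as log2((FPKM + 1)/(FPKM + 1)), called at 2-fold where 1 library had at least 1 FPKM. Protein-coding genes are those RefSeq lists as such, by symbol, with 1 locus in the table. The genes, lists and comparisons were chosen with earlier results of these data known. Named were the 8 genes, KDM1A, list genes at 1 FPKM or more that were called (some list genes are not reported here), and the 3 genes nearest in pattern to each gene called. Alternatives were a replicate block, other pseudocounts, filters and thresholds, each library left out in turn, quantile normalization, and a shift to a median of 0. Other steps ran in Python 3.11.15 with numpy 2.4.6, pandas 2.3.3 and, for figures, matplotlib 3.10.9.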

Additional observations from a re-analysis of the deposited data

Results flagged for a closer look

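CYP26A1 was higher with MC_2580 in the presence of RA and not in its absence. The log2 difference in FPKM + 1 was -0.03 for MC_2580 against DMSO (0.0178 and 0.0396 FPKM) and 2.12 for the combination against RA 0.01 uM (14.2 and 2.49 FPKM). Each side is 1 library against another, both values without RA lie near 0 and give no direction, and the difference between the 2 was not tested.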

How the results depend on the processing

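In the knockout comparison limma called 15 loci, 38 with a pseudocount of 0.1, 7 where KO or WT had to average 5 FPKM, 59 among protein-coding genes alone, and 0 with no filter on low values (1720 at an unadjusted p under 0.05). It called 0 loci without any 1 of the 4 libraries, the lone library being assumed to vary like the other group (654 to 801 at an unadjusted p under 0.05). With a replicate block it called 0 (3198 at an unadjusted p under 0.05). Same-numbered libraries deviated together (r = 0.211 across 13156 loci, which are not independent replicates). The authors' calls test KO 1 against WT 1 and KO 2 against WT 2. No label explains the numbers, so whether same-numbered libraries share more than a number is not known. None of the 5 genes tested here passed in any fit that kept it; with the block the unadjusted p was 0.00306 for DHRS9 and 0.0181 for RBP4 (limma adjusted p 0.149 and 0.164). Leaving out 1 library took the log2 difference of DHRS3 from -0.11 to 1.14 that of RDH10 from -0.33 to 0.038, that of CRABP2 from 0.09 to 0.89 and that of RBP4 (-0.70) as near to 0 as -0.40. At 4-fold in place of 2-fold, 3 genes stayed apart from DMSO in RA 0.01 uM, 5 in RA 1 uM and 4 in the combination. Between the 2 doses 1 gene stayed apart. For the combination 1 stayed apart from RA 0.01 uM, 0 from RA 1 uM and 4 from MC_2580. A pseudocount of 0.1 brought STRA6 past 2-fold between the doses (1.05). The other differences tested between treatment libraries kept their side of 2-fold under that pseudocount, with no filter and after the shift. In KO against WT the same pseudocount took DHRS3 from 0.51 to 1.05 and RBP4 from -0.70 to -1.05, both past 2-fold (limma adjusted p 0.881 and 0.818). These alternatives were not run for the receptors and other list genes. Unknown read totals limit values under about 1 FPKM.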
